A study of Mus musculus with 5 samples.

Results

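Natural killer (NK) cells were picked out of 2 single-cell libraries of mouse tissue by the messages they carried, and 143 of 9565 kept cells met the rule. Barcodes were kept if 200 or more genes were detected and no more than 15% of their unique molecular identifiers (UMIs, 1 per captured message) were mitochondrial. An NK cell had at least 2 UMIs summed over the NK receptor genes Ncr1, Klrb1c, Klre1 and Klra8. It also had at most 1 UMI of the CD3 genes Cd3e, Cd3d and Cd3g, none of Cd8b1, under 5 of the complement genes C1qa, C1qb and C1qc, and no assembled T cell receptor beta chain. The cells were thus chosen by their own UMI counts of these genes, which are given below as a description only. The rule found 106 NK cells among 5482 kept control cells and 37 among 4083 from the treated mice.

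BALB/c mice aged 6 weeks were injected intraperitoneally on days 5, 8 and 11. The treated mice got 100 µg of the anti-CTLA-4 antibody 9H10 each time, and control mice got PBS. Samples were taken on day 13 and dissociated with a tumour dissociation kit. The labels call the source only tissue, and the study's title concerns CTLA-4 inhibition, follicular T and B cell interaction and antibodies against the tumour. Each treatment had 1 gene expression library made with 10x 5′ chemistry, and the labels do not say how many mice went into it. Treatment and library therefore cannot be told apart: intervals below are 95% exact intervals for counting error only, and no difference between treatments has a replicate check.

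NK cells are lymphocytes that kill by granzymes and perforin without a rearranged antigen receptor, under the control of activating and inhibitory surface receptors. Together with type 1 innate lymphoid cells (ILC1) they carry Ncr1 (NKp46) and Klrb1c (the NK1.1 family). The transcription factor Eomes, the Klra (Ly49) receptors and high Gzma are usual in circulating NK cells. Resident NK cells and ILC1 tend to carry the chemokine receptor Cxcr6 and the collagen-binding integrin Itga1 (CD49a). Itgam (CD11b) and Klf2, a factor that keeps lymphocytes in circulation, mark the circulating state. On mouse build GRCm38 these 4 state genes lie at chr9:123806475-123811760 (Cxcr6), chr13:114953096-115101964 (Itga1), chr7:128062640-128118491 (Itgam) and chr8:72319033-72321656 (Klf2), in GENCODE release M21.

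The libraries differed before any NK cell was chosen. The control held 86478313 UMIs over 5649 barcodes and the anti-CTLA-4 library 19989467 over 4186. The NK cells were closer in depth, with a median of 4700.5 UMIs in the control (745 to 40029) and 3295 after anti-CTLA-4 (1450 to 14276). The libraries shared 20 barcodes, none of them an NK cell. Crabp1, a retinoic acid binding protein that lymphocytes do not normally make, had a UMI in 71 of 106 control NK cells and in 334 of 531 control macrophages with C1q, but in 0 of 37 NK cells and 1 of 131 macrophages after anti-CTLA-4. The part of free RNA in the NK values was not tested.

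Of the control NK cells, 7 stood apart by depth, with over 15000 UMIs each, and held 27.7% of all control NK UMIs. A list of tumour and stroma genes gave 892 UMIs in these 7 cells, from 1 to 238 per cell with a median of 171. It gave 0 to 6 per cell in the other 99 and 0 to 2 per cell after anti-CTLA-4. A list of dendritic cell genes gave 289 and 192 UMIs in a pair of the 7, against at most 13 in the other 99 and 6 after anti-CTLA-4. The tumour and stroma list gave only 2 and 1 UMIs in that pair. That pair also held 1276 UMIs of Cd74, the MHC class II invariant chain, and had no UMI of Eomes, Gzma, Gzmb or Prf1. All 7 are called NK cells here only because they met the rule. No anti-CTLA-4 NK cell was that deep. Among the other 99 control cells, 1 held 65 UMIs of a list of macrophage genes and another held 24. A further control cell, of 1156 UMIs in all, held 11 of a list of neutrophil genes. After anti-CTLA-4 the most in any cell were 1 and 2 UMIs of these lists. Ratios between treatments are over all NK cells unless stated, and values over those with up to 15000 UMIs are given beside many of them.

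**Figure D1:**
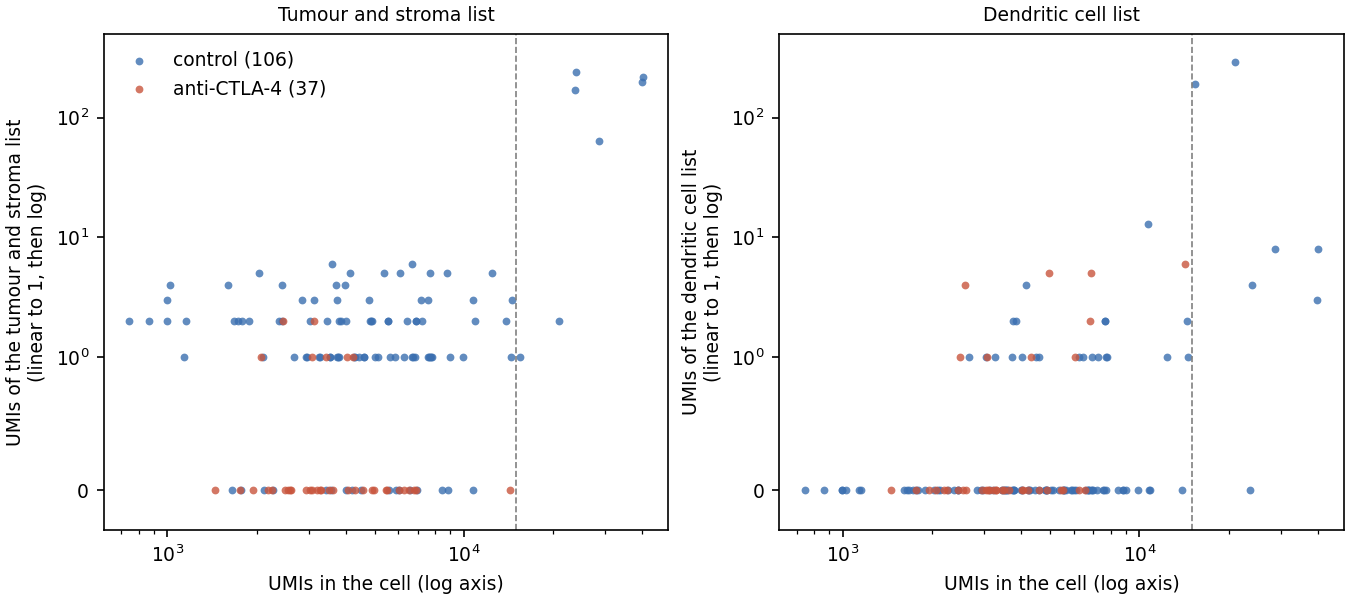
Depth of each NK cell and its UMIs of other cell types. Each point is 1 cell, with its total UMIs on a log axis and its summed UMIs of the tumour and stroma list (left) or the dendritic cell list (right) on an axis that is linear to 1 and then logarithmic. The dashed line is 15000 UMIs, and all cells above 15 UMIs of either list shown lie to the right of it. Macrophage and neutrophil lists are not shown.

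NK cells made up a smaller share of the anti-CTLA-4 library than of the control. They were 1.93% of kept control cells (1.59 to 2.33) and 0.906% after anti-CTLA-4 (0.639 to 1.25), a ratio of 0.469 (0.313 to 0.687). Among cells with a UMI of Ptprc (CD45, the pan-leukocyte phosphatase) they were 96 of 1097 in the control, or 8.75% (7.15 to 10.6). After anti-CTLA-4 they were 32 of 2507, or 1.28% (0.875 to 1.80), and the ratio was 0.146 (0.0946 to 0.220). Kept cells were fewer after anti-CTLA-4 while Ptprc-positive cells were more numerous, and CD8 T cells numbered 52 in the control and 510 after anti-CTLA-4. A lower share is not a count of NK cells per sample, which was not measured.

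**Figure D2:**
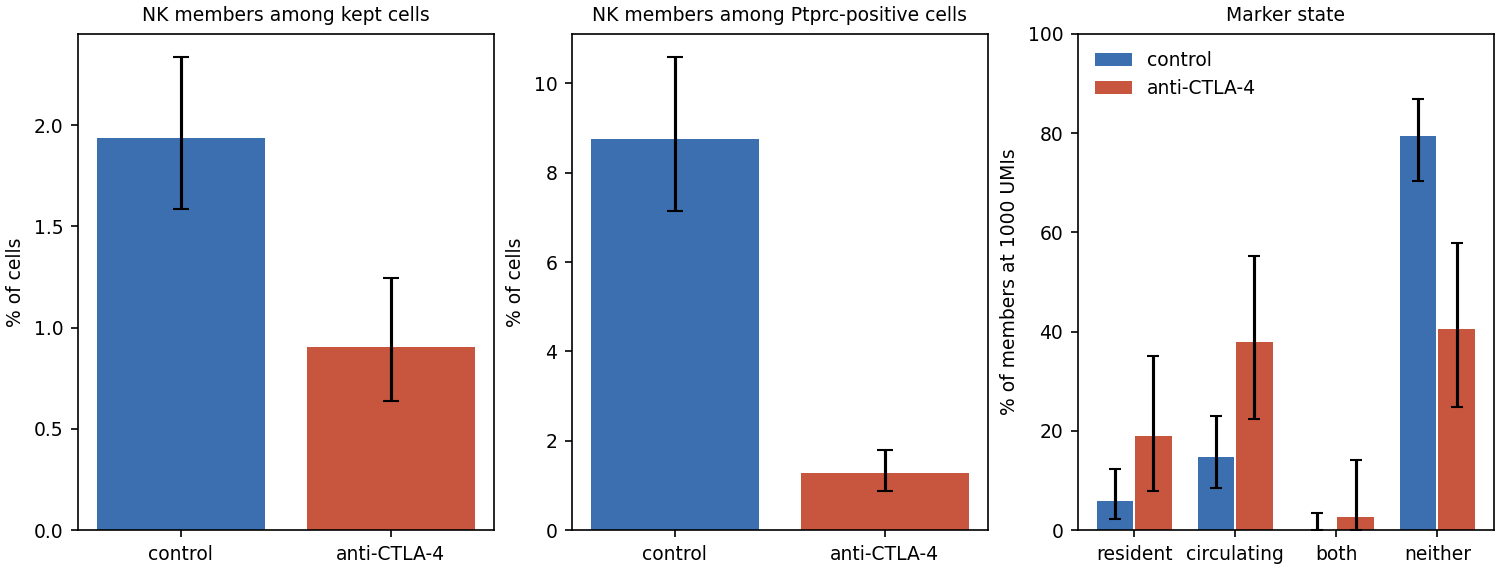
Shares of NK cells and of their marker states. Bars start at 0 and show the percent of kept cells (left), of Ptprc-positive cells (middle) and of NK cells thinned to 1000 UMIs in each state (right), with exact 95% intervals for counting error. NK cells were 1.93% of kept cells in the control and 0.906% after anti-CTLA-4, and the class with neither marker was 79.4% and 40.5% of NK cells.

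The rule turned on few molecules per cell. Exactly 2 receptor UMIs were found in 36 control and 12 anti-CTLA-4 NK cells, just inside the limit. Just outside it, 77 control and 37 anti-CTLA-4 cells met every other condition with 1 receptor UMI. Ncr1, a rule gene that triggers killing, had a UMI in 85 of 106 and 30 of 37 NK cells. Klre1, a lectin-like receptor, had one in 74 and 23, and Klrb1c in 36 and 13. Klra8, which encodes the cytomegalovirus receptor Ly49H of other strains, had no UMI in either library. That allows up to 3.42% and 9.49% of such cells to carry a UMI, and does not limit the share that express the gene.

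Eomes, which the rule did not use, was found in a larger share of NK cells than of CD8 T cells or macrophages. It had a UMI in 59 of 106 control NK cells (55.7%) and 22 of 37 anti-CTLA-4 NK cells (59.5%). In CD8 T cells, taken as cells with a T cell receptor beta chain, Cd8b1 and no Cd4, it was found in 9 of 52 and 55 of 510. In macrophages with at least 5 C1q UMIs, which should lack it, it was found in 2 of 531 and 0 of 131, at median depths of 4671 and 4513 UMIs. Tbx21 (T-bet), the partner factor of Eomes, had a UMI in 39 and 15 NK cells.

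Markers of other lymphocytes were mostly near 0, with exceptions. No NK cell had an assembled T cell receptor chain of either kind, while 2 anti-CTLA-4 NK cells had a B cell receptor contig. Cd3e had 1 UMI in all control NK cells and 0 after anti-CTLA-4, and the co-receptor Cd8a had 0 and 1. The constant segments Trbc1 and Trdc were present, Trbc1 in 51 and 22 cells and Trdc in 48 and 8 cells. Unrearranged transcripts of such segments are known in NK cells, and without contigs of gamma or delta chains their source was not tested. Il22 and Il23r, genes of group 3 innate lymphoid cells, were at 0 in both libraries. Il1rl1, the interleukin 33 receptor typical of group 2 cells, had 83 control UMIs, 66 of them in the 7 deep cells, and 1 UMI after anti-CTLA-4. In the control, the list of group 2 genes that holds Il1rl1 stood at 3.19 UMIs per 10000 in macrophages with C1q. It stood at 2.18 in CD8 T cells and 0.478 in NK cells without the 7 deep ones. After anti-CTLA-4 these levels were 0.0264, 0.329 and 0.471. Of the 7 anti-CTLA-4 NK UMIs of the list, 5 sat in 1 cell with Cxcr6. The source of Il1rl1 was not tested.

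Few NK cells carried the resident genes, and more carried the circulating ones. To compare the libraries at equal depth, each cell was thinned to 1000 UMIs, which left out 4 control cells. A cell with a UMI of Cxcr6 or Itga1 and none of Itgam or Klf2 was called resident-marked, and the reverse circulating-marked. In the control, 6 of 102 cells were resident-marked (5.88%, 2.19 to 12.4), 15 circulating-marked (14.7%, 8.47 to 23.1), none carried both and 81 neither. After anti-CTLA-4, 7 of 37 were resident-marked (18.9%, 7.96 to 35.2), 14 circulating-marked (37.8%, 22.5 to 55.2), 1 carried both and 15 neither. Many calls rested on 1 molecule: of the cells with a circulating gene, 12 of 15 (control) and 9 of 15 (treated) had exactly 1 UMI, and of those with a resident gene 5 of 6 and 4 of 8. With another random draw of the 1000 UMIs, chosen after seeing the data, the resident-marked share was 4.90% in the control and 8.11% after anti-CTLA-4.

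At full depth more cells fell into a state. The control then had 14 resident-marked, 40 circulating-marked, 7 with both and 45 with neither of 106. The anti-CTLA-4 library had 7, 19, 6 and 5 of 37. The control counts include the 7 deep cells. Of the pair with many dendritic UMIs, the cell with 289 was resident-marked by Itga1 and that with 192 circulating-marked by Itgam. Both classes were larger in share after anti-CTLA-4 at either depth, but the intervals of the libraries overlapped for both classes at both depths. Klf2 was found in 42 and 24 NK cells and Itgam in 7 and 5. The 7 control cells with Itgam included the deep cell with 192 dendritic UMIs. They also included cells with 65 and 24 UMIs of the macrophage list and a cell with 11 of the neutrophil list. Each of the others held at most 1 UMI of these lists. The cells with 24 and 11 were circulating-marked after thinning as well. The source of Itgam in these cells was not tested. Macrophages, which express Itgam themselves, carried it in 56.3% and 49.6% of cells, and Klf2 in 21.3% and 21.4%.

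The resident genes did not mark the same cells. Cxcr6 had a UMI in 7 of 106 control NK cells (6.60%, 2.70 to 13.1), with 1 to 5 UMIs each, and in 12 of 37 anti-CTLA-4 NK cells (32.4%, 18.0 to 49.8), with 1 to 11 each. After thinning the shares were 3.92% and 21.6%. In macrophages Cxcr6 was found in 1 of 531 and 2 of 131 cells. Itga1 was found in 14 control and 3 anti-CTLA-4 NK cells, and both genes together in 0 and 2. The 14 include the deep cell with 289 dendritic UMIs. Of the 14 control cells with Itga1, 11 had Gzma and 10 had Eomes, while the same single cell of the 7 with Cxcr6 had both Gzma and Eomes. Cxcr6 was used to split the cells in what follows. That choice was made with these values seen, so the Gzma and Eomes values of the split are a description of the cells and not separate support for it.

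**Figure D3:**
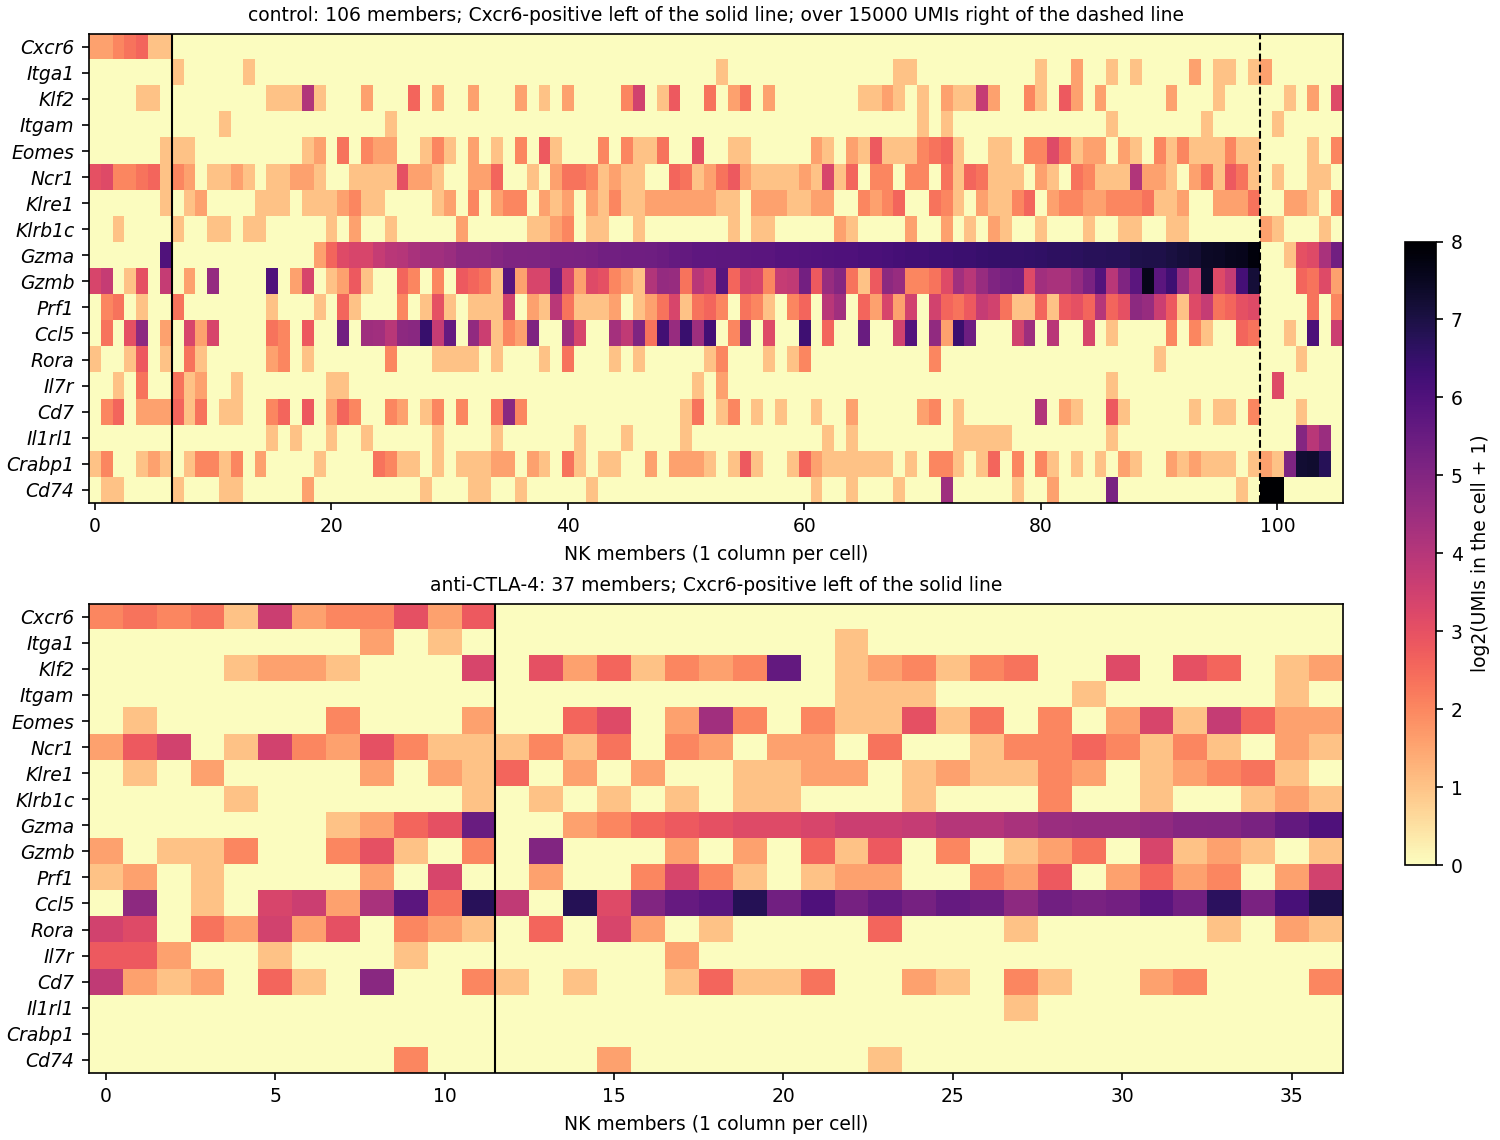
UMIs of selected genes in every NK cell. Each column is 1 cell and each row 1 gene, with colour for log2(UMIs + 1), capped at 8, for the 106 control cells (top) and 37 anti-CTLA-4 cells (bottom), ordered by Gzma within groups. Cxcr6-positive cells, 7 and 12, stand left of the solid line, where Gzma was found in 1 and 5 cells, and the 7 deep control cells stand right of the dashed line.

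The rule does not separate NK cells from ILC1, which share Ncr1 and Klrb1c, and which of the cells are ILC1 was not tested. Cells with Cxcr6 are called NK cells here because they met the rule, and are described by their effector and receptor genes. They had less Gzma, the serine protease of NK granules, and seldom Eomes or the Ly49 receptor genes. They had more Rora, Il7r, Emb and Bcl2a1d, genes reported in resident or helper-like innate lymphocytes. In the control, much of the Rora and Il7r sat in 1 cell, and Il7r and Bcl2a1d had few UMIs in either library. Below, counts of cells are over all NK cells, and UMIs, levels and ratios of this split over those with up to 15000 UMIs. The cells compared share a library, and those with Cxcr6 number 7 and 12.

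Gzma was found in 1 of 7 control cells with Cxcr6, at 62 UMIs in that cell, and in 85 of 99 without. After anti-CTLA-4 it was found in 5 of 12 with Cxcr6, where 44 of 59 UMIs sat in 1 cell, and in 23 of 25 without. Thinned to 1000 UMIs, the shares were 1 of 6 against 82 of 96 and 3 of 12 against 20 of 25. Gzma was thus absent from most cells with Cxcr6 in both libraries and present in most cells without it. Gzmb, the caspase-cleaving granzyme, stood at 11.5 UMIs per 10000 in control cells with Cxcr6 and 40.1 in those without (ratio 0.288, 0.206 to 0.392). After anti-CTLA-4 the levels were 3.97 and 7.40 (ratio 0.537, 0.313 to 0.883). Prf1, the pore-forming perforin, had ratios of 0.272 (0.117 to 0.542) and 0.469 (0.247 to 0.839). The chemokine Ccl5 was likewise lower, at ratios of 0.423 (0.301 to 0.579) and 0.335 (0.290 to 0.386).

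Eomes was found in 1 of 7 control cells with Cxcr6 and 58 of 99 without, and in 3 of 12 and 19 of 25 after anti-CTLA-4. The inhibitory Ly49 gene Klra3 had 1 UMI in control cells with Cxcr6 and 147 in those without, and 0 and 28 after anti-CTLA-4. Its relative Klra7 had 0 and 123, then 0 and 25. The Ly49 genes were thus nearly confined to cells without Cxcr6 in these libraries, though 7 and 12 cells are few in which to detect low levels. Klre1 and Ncr1 belonged to the rule and are a description: Klre1 was in 1 of 7 and 73 of 99, then 5 of 12 and 18 of 25, and Ncr1 was in 7 of 7 and 11 of 12 cells with Cxcr6. A cell without Klre1 had to hold other receptor UMIs to be chosen.

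Rora, a nuclear receptor of helper innate lymphocytes, stood at 2.53 UMIs per 10000 with Cxcr6 and 0.836 without in the control (ratio 3.03, 1.29 to 6.37), and at 9.27 and 2.82 after anti-CTLA-4 (ratio 3.29, 2.02 to 5.48). Il7r, the interleukin 7 receptor, had 5 and 14 UMIs in the control and 16 and 2 after anti-CTLA-4. Emb, an adhesion glycoprotein, had ratios of 3.95 (2.84 to 5.41) and 3.13 (2.13 to 4.65). The survival gene Bcl2a1d was found in 4 of 7 against 7 of 99 cells and in 11 of 12 against 3 of 25. Il2ra, the high-affinity interleukin 2 receptor chain, had 14 against 10 UMIs and 8 against 1. These genes were higher with Cxcr6 in both libraries. Il7r, Il2ra and Bcl2a1d each had fewer UMIs in either library than the minimum set for calling a difference. Their values are a description only. Of the 24 control Il2ra UMIs, 7 sat in 1 cell. In the control, 1 cell with Cxcr6 held 6 Rora UMIs and 4 of the 5 Il7r UMIs. Each other control cell with Cxcr6 held at most 1 UMI of either gene. The control values of Rora and Il7r thus rest largely on 1 cell.

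Other genes split differently in the 2 libraries. Xcl1, the chemokine that attracts cross-presenting dendritic cells, had a ratio of 4.35 (3.07 to 6.07) in the control and 0.710 (0.387 to 1.25) after anti-CTLA-4. The Fc receptor gamma chain Fcer1g had 0.778 (0.523 to 1.12) and 0.292 (0.153 to 0.517). The difference between libraries was not tested. Over all genes with at least 30 UMIs, 8.84% were at least 2-fold higher with Cxcr6 in the control and 22% at least 2-fold lower, with the 7 deep cells among those without. The values were 6.45% and 6.99% after anti-CTLA-4.

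The resident-marked and circulating-marked cells numbered 6 and 15 in the control and 7 and 14 after anti-CTLA-4. Cxcr6 had a UMI in 4 of the 6 and in all 7 resident-marked cells, and in 0 of 15 and 1 of 14 circulating-marked cells. This is thus largely the split by Cxcr6 again in fewer cells, and a like pattern is not separate support for it. Here the 4 state genes chose the groups, and they are not counted. Gzma stood at 18.4 UMIs per 10000 in resident-marked and 108 in circulating-marked control cells (ratio 0.170, 0.126 to 0.225). All 52 resident-marked control UMIs sat in 1 of the 6 cells, while 13 of 15 circulating-marked cells had the gene. The levels were 2.04 and 55.8 after anti-CTLA-4 (0.0365, 0.0133 to 0.0803), in 2 of 7 and 13 of 14 cells. Ccl5 had ratios of 0.361 (0.249 to 0.510) and 0.202 (0.161 to 0.251), and Eomes 1 against 25 UMIs and 4 against 33. Higher in resident-marked cells of both libraries were Emb, at 2.62 (1.64 to 4.20) and 3.96 (2.44 to 6.62), Rgs1, a damper of chemokine receptor signalling, at 6.60 (3.74 to 12.2) and 2.06 (1.46 to 2.91), and Cd7, at 2.39 (1.11 to 5.19) and 2.25 (1.14 to 4.51). Single cells carried much of these sums: 27 of 42 Emb and 29 of 50 Rgs1 UMIs of the resident-marked control cells, and 13 of 22 Cd7 and 35 of 77 Rgs1 UMIs of the anti-CTLA-4 cells.

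Further differences were seen in 1 library or likewise rested on few cells. Xcl1 was 7.03-fold higher in resident-marked control cells (4.30 to 11.9), with 50 of 69 UMIs in 1 cell, and 1.11-fold after anti-CTLA-4 (0.523 to 2.26). Ifng, the interferon that activates macrophages, had 4 UMIs against 58 in the control, 52 of the 58 in 1 cell. Il1b had 0 UMIs in resident-marked and 75 in circulating-marked control cells, 52 of the 75 in 1 cell. The circulating-marked control cells included those with 24 UMIs of the macrophage list and 11 of the neutrophil list. The source of Il1b was not tested. The polyamine enzyme Odc1 was 18.4-fold higher in resident-marked anti-CTLA-4 cells (7.42 to 59.1), with 46 of 53 UMIs in 1 cell. Of 430 genes with at least 30 UMIs in the control, 5.12% were at least 2-fold higher and 7.21% at least 2-fold lower in resident-marked cells. Of 385 after anti-CTLA-4, the shares were 7.79% and 7.53%.

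Between treatments, NK cells from anti-CTLA-4 mice had more Cxcr6, Cxcr4, Ccl5, Klf2, Eomes and Nr4a genes, and less Gzma, Gzmb and Nkg7. Genes of proliferation and of the type I interferon response were lower. Of 3759 genes with at least 30 UMIs over both libraries, 11% were at least 2-fold higher after anti-CTLA-4 and 13.4% at least 2-fold lower. Up to 15000 UMIs the shares were 8.89% and 8.11% of 2959 genes. The counts of the lists below are read against these shares, and the median of all genes was 0.05 on the log2 scale over all NK cells.

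Gzma had 0 to 227 UMIs per control NK cell, with a median of 40.5, and 0 to 63 with a median of 8 after anti-CTLA-4. The groups overlapped, and 86 of 106 and 28 of 37 cells had a UMI. Summed, it stood at 79.8 and 32.7 UMIs per 10000, a ratio of 0.410 (0.373 to 0.450), or 0.301 (0.273 to 0.330) up to 15000 UMIs. Gzmb had 0 to 193 UMIs with a median of 8 in the control, and 0 to 31 with a median of 1 after anti-CTLA-4. Its ratio was 0.222 (0.178 to 0.274), or 0.162 (0.130 to 0.200) up to 15000 UMIs. Both granzymes were lower in the typical cell of the anti-CTLA-4 library, not only in the sum.

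Nkg7, a protein of cytotoxic granule membranes, had a ratio of 0.527 (0.440 to 0.627), and 0.387 (0.323 to 0.460) up to 15000 UMIs. Prf1 had 0.850 (0.653 to 1.09) and 0.626 (0.481 to 0.805). Gzmc, a granzyme of activated killers, was 2.32-fold higher (2.05 to 2.63), but 1.68-fold up to 15000 UMIs. Of its 378 anti-CTLA-4 UMIs 213 sat in 1 cell, and it was found in 8 of 37 cells against 42 of 106. Of 12 measured cytotoxic effector genes, 4 were at least 2-fold higher and 3 at least 2-fold lower. Up to 15000 UMIs these counts were 1 and 4.

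Among secreted products, Ccl5, which draws T cells, had 0 to 87 UMIs per control cell with a median of 2.5, and 0 to 124 with a median of 37 after anti-CTLA-4. It was found in 61 of 106 and 33 of 37 cells. The ratio was 5.05 (4.69 to 5.44), or 3.88 (3.60 to 4.18) up to 15000 UMIs. Ltb, the membrane lymphotoxin, was 4.10-fold higher (3.26 to 5.16), or 2.99-fold up to 15000 UMIs, in 61 and 19 cells. Areg, an epidermal growth factor family ligand, had 297 control UMIs, 273 of them in 1 cell, and 0 after anti-CTLA-4.

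Fewer receptor genes stood apart. Of 8 measured activating receptors, 2 were at least 2-fold higher and 1 lower, and of 9 inhibitory receptors 2 were higher and 1 lower. Hcst (DAP10), the adapter of NKG2D, was 4.15-fold higher (3.08 to 5.59), or 3.13-fold up to 15000 UMIs, found in 55 of 106 and 30 of 37 cells, and Tyrobp (DAP12) stood at 17.2 and 16.8 UMIs per 10000. Klrc1 (NKG2A) was 2.47-fold higher (1.95 to 3.11) and Tigit 2.23-fold (1.61 to 3.04), but 1.82-fold and 1.70-fold up to 15000 UMIs. Lag3, an inhibitory receptor of MHC class II, had 52 control UMIs in 33 cells and 1 after anti-CTLA-4 (ratio 0.0898, 0.00223 to 0.523).

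Of 15 measured cytokine receptor and signalling genes, 6 were at least 2-fold higher and none lower, and 3 and none up to 15000 UMIs. Il18rap, a chain of the interleukin 18 receptor, was 3-fold higher (2.07 to 4.30), in 49 of 106 and 25 of 37 cells. Among 12 chemokine receptor and adhesion genes, 4 were higher and none lower. Cxcr4, the receptor of the bone marrow chemokine CXCL12, had 30 control UMIs in 18 of 106 cells and 57 in 19 of 37 after anti-CTLA-4. Its ratio was 8.87 (5.61 to 14.3), or 8.02 (4.90 to 13.5) up to 15000 UMIs. Cxcr6 was 12.7-fold higher (7.27 to 23.2), or 9.19-fold (5.26 to 16.8) up to 15000 UMIs.

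Of 11 measured resident and ILC1 genes, 9 were at least 2-fold higher after anti-CTLA-4 and none lower, with a list median of 1.57 on the log2 scale. Up to 15000 UMIs the counts were 6 and 0 of 10. Cells with Cxcr6 made up a larger share of the anti-CTLA-4 NK cells, so the comparison was also made in cells without Cxcr6 up to 15000 UMIs, where 9.24% of 2575 genes were at least 2-fold higher and 11% lower. There 2 of 8 resident and ILC1 genes were higher, and the median was 0.70. Choosing cells without Cxcr6 removed that gene by itself, and Il7r fell below the UMIs needed to count as measured. The counts of 6 of 10 and 2 of 8 thus cover different sets of genes, and the fall between them was not tested. Leaving out first the deep cells and then those with Cxcr6, Il7r went from a ratio of 3.11 (1.62 to 5.86) to 3.20 and then 0.695 (0.0767 to 3.03). Cd7 went from 2.62 to 1.90 and then 1.05 (0.675 to 1.57), and Emb from 2.37 to 1.80 and then 1.24 (0.868 to 1.73). Rora went from 7.24 (4.99 to 10.6) to 5.35 (3.68 to 7.84) and then 3.37 (1.98 to 5.65). The deep cells thus made up part of the move for Cd7, Emb and Rora. For Il7r, Cd7 and Emb the intervals in cells without Cxcr6 included 1.

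Several genes differed as much in cells without Cxcr6. Klf2, a circulating-state gene, had 122 control UMIs in 42 of 106 cells and 123 in 24 of 37, 48 of them in 1 cell. Its ratio was 4.71 (3.63 to 6.10) over all NK cells and 4.82 (3.66 to 6.35) in cells without Cxcr6. Eomes had 0 to 8 UMIs per control cell and 0 to 20 after anti-CTLA-4, with a median of 1 in both. Its ratio was 3.46 (2.63 to 4.53), 2.58 (1.96 to 3.39) up to 15000 UMIs and 3.52 (2.65 to 4.64) without Cxcr6. Ccl5 stayed at 4.87 (4.50 to 5.27), Cxcr4 at 7.83 (4.53 to 13.8), Gzma at 0.385 (0.348 to 0.425) and Gzmb at 0.185 (0.144 to 0.234). Of 11 measured genes of circulating and mature NK cells, 2 were at least 2-fold higher and 1 lower over all NK cells, and of 17 transcription factors 8 were higher and 1 lower. Zbtb32, a repressor induced in proliferating NK cells, had 42 control UMIs and 0 after anti-CTLA-4, at least 3-fold lower against a floor of 3 counts over the group.

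**Figure D4:**
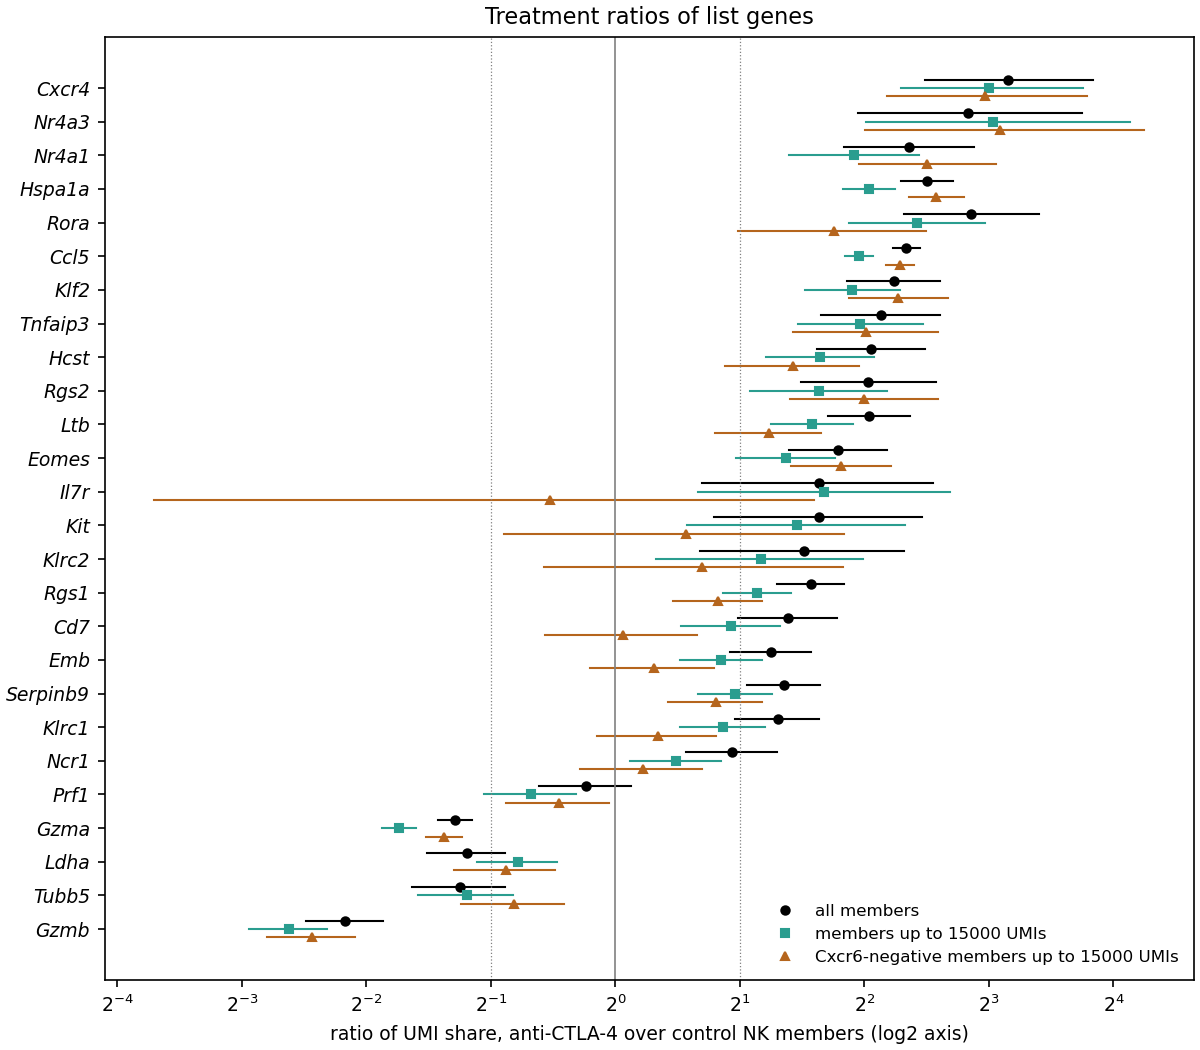
Ratios of UMI share between treatments for named list genes. Each marker is the anti-CTLA-4 share over the control share on a log2 axis, for all NK cells, those with up to 15000 UMIs, and those without Cxcr6 up to 15000 UMIs, with exact 95% intervals for counting error; dotted lines are 2-fold. Cxcr4 lay at 8.87, 8.02 and 7.83, Gzmb at 0.222, 0.162 and 0.185, and Il7r crossed from 3.11 to 0.695 in cells without Cxcr6.

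Of 11 activation-induced genes, 7 were at least 2-fold higher and none lower (list median 1.68 on the log2 scale), and 6 and none up to 15000 UMIs. Nr4a3 and Nr4a1, nuclear receptors induced within minutes to hours of receptor signalling, had ratios of 7.13 (3.86 to 13.5) and 5.13 (3.57 to 7.38). Up to 15000 UMIs they were 8.16 and 3.77. They were found in 12 and 29 of 106 control cells and in 16 and 18 of 37. Tnfaip3, a brake on NF-κB, was 4.37-fold higher (3.14 to 6.08), in 55 and 30 cells. Tissue dissociation induces some of the same genes, and 4 of 14 measured dissociation and heat stress genes were at least 2-fold higher and 1 lower. Hspa1a, an inducible chaperone of the heat shock response, was 5.67-fold higher (4.91 to 6.55), with 159 of 426 UMIs in 1 cell and a UMI in 11 of 37 cells against 32 of 106. The part of dissociation in these ratios was not tested.

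Proliferation genes were lower after anti-CTLA-4: 13 of 18 measured were at least 2-fold lower and none higher, with a list median of -1.71. Up to 15000 UMIs the counts were 13 and 0 of 17, and in cells without Cxcr6 9 and 0 of 15. Pclaf, a replication clamp factor, had 133 control UMIs in 21 cells and 3 in 1 cell after anti-CTLA-4 (ratio 0.105, 0.0215 to 0.315). Top2a, the mitotic topoisomerase, had 112 UMIs in 27 cells and 5 in 2 cells (0.208, 0.0664 to 0.501). Tubb5, a tubulin, was in 79 and 20 cells, at 0.421 (0.323 to 0.541).

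Type I interferon response genes were lower in 4 of 7 measured and higher in none, with a list median of -1.06. Isg15, a ubiquitin-like protein induced by interferon, had 53 control UMIs in 29 cells and 1 after anti-CTLA-4 (ratio 0.0881, 0.00219 to 0.513). Bst2 (tetherin) had 221 and 10 UMIs, at 0.211 (0.0999 to 0.396). These values are over all NK cells. Control cells with up to 15000 UMIs held 43 of the 53 Isg15 and 131 of the 221 Bst2 UMIs. Of 13 glycolysis and hypoxia genes, 7 were at least 2-fold lower and none higher, but 3 of 12 up to 15000 UMIs. Ldha, the lactate dehydrogenase of glycolysis, went from 0.438 (0.351 to 0.540) to 0.580 (0.462 to 0.722) without the deep cells. Gapdh of the same list was higher, at 1.63 (1.35 to 1.96).

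Of 8 measured BCL2 family genes, 3 were at least 2-fold higher and 2 lower. Bcl2a1d, a survival protein induced by NF-κB, had 15 UMIs in 11 control cells and 29 in 14 of 37 after anti-CTLA-4 (ratio 9.03, 4.68 to 18.1). Bcl2 itself, which keeps resting lymphocytes alive, had 102 UMIs in 57 cells and 10 in 7 (0.458, 0.213 to 0.877). Without Cxcr6 the Bcl2a1d ratio was 3.48 (0.870 to 12.7).

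A sum over cells gives deep cells more weight, and equal weight for each cell moved some of these ratios. Cxcr6 then stood at 7.85, Rora at 4.20 and Ccl5 at 2.82. Cd7 at 1.65, Emb at 1.52, Il7r at 1.78, Klrc1 at 1.81, Tigit at 1.86 and Gzmc at 1.42 were no longer 2-fold higher. Lower genes moved as well, with Pclaf at 0.0422, Top2a at 0.121, Isg15 at 0.134 and Bcl2 at 0.303. Gzma at 0.403 and Gzmb at 0.205 were little moved, and Cxcr4 was at 7.82.

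Outside the lists, the genes farthest below 1 were Mt1, Spp1 and Ctsl, along with Crabp1 and Cd74. Mt1, a metal-binding metallothionein, had 1312 control UMIs in 90 of 106 cells and 1 after anti-CTLA-4. Spp1 (osteopontin), a product of macrophages and tumour cells, had 1669 UMIs in 82 cells and 10 in 2 cells. Ctsl, a lysosomal protease, had 671 in 51 cells and 3 in 2 cells. The 7 deep cells held 1025 of the control UMIs of Spp1 and 450 of those of Crabp1. Without them Cd74 was at 0.270, Ctsl at 0.124 and Spp1 at 0.0524. Crabp1 is at least 40.3-fold lower over all NK cells against a floor of 3 counts, and without the deep cells it had 115 control UMIs and 0 after anti-CTLA-4 (ratio 0, up to 0.110).

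Against CD8 T cells of the same library, NK cells had more Tyrobp, Fcer1g, Gzma, Prf1 and Eomes, and less Pdcd1, Lag3 and Cxcr6. In the control 8.25% of 4123 genes were at least 2-fold higher and 3.95% lower, and after anti-CTLA-4 11.4% and 15% of 7016. With NK and CD8 T cells over 15000 UMIs left out, the shares were 8.85% and 5% of 3018 genes and 11.8% and 14.2% of 6569. Of list genes, 47 in the control and 61 after anti-CTLA-4 were at least 2-fold higher. These counts did not leave out the rule genes Ncr1, Klre1 and Klrb1c, which are a description only. The lists hold 318 genes, not all of them measured, so the counts are not read against the shares over all genes. CD3 and CD8 genes and the T cell receptor entered the choice of both groups and are not results. CD8 T cells had a median depth of 3508 and 4358.5 UMIs.

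Of 7 measured signalling adapters, 2 were at least 2-fold higher and 1 lower in control NK cells, and 2 and none after anti-CTLA-4. Hcst stood at 0.807 (0.570 to 1.15) and 1.08 (0.861 to 1.34). Tyrobp, which couples Ly49 and NKG2C receptors to kinases, was 35.6-fold higher in control NK cells (21.1 to 65.3) and 69.6-fold after anti-CTLA-4 (52.9 to 92.8). Fcer1g was 9.84-fold (6.60 to 15.3) and 32.6-fold (23.3 to 45.9) higher. Irf8, a factor needed for NK responses to virus, was 5.95-fold (4.75 to 7.53) and 28.6-fold (24.3 to 33.8) higher, and Eomes 4.19-fold (2.37 to 8.08) and 18.4-fold (13.7 to 24.6). Prf1 was 3.40-fold (2.52 to 4.68) and 7.50-fold (5.63 to 9.89) higher. In both libraries these genes were carried far more by NK cells than by CD8 T cells.

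Gzma was 128-fold higher in control NK cells (81.0 to 216) and 3.57-fold after anti-CTLA-4 (3.24 to 3.94), or 111-fold and 8.51-fold up to 15000 UMIs. In the control 3 of 52 CD8 T cells had a Gzma UMI, and 125 of 510 did after anti-CTLA-4. Gzmb was 3.29-fold higher in control NK cells (2.88 to 3.78), or 5.95-fold up to 15000 UMIs, and the ratio was 0.957 (0.767 to 1.18) after anti-CTLA-4. Klra7 had 126 UMIs in control NK cells and 0 in CD8 T cells. Ccr2, which directs cells to inflamed sites, was 32.3-fold (10.9 to 158) and 2.37-fold (1.83 to 3.03) higher. Whether NK and CD8 T cells differed between libraries was not tested.

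Of 9 measured inhibitory receptors, 3 were at least 2-fold higher and 3 lower in control NK cells, and 1 and 4 after anti-CTLA-4, and Tigit stood at 0.967 (0.700 to 1.35) and 1.80 (1.36 to 2.34). Lower in NK cells of both libraries were Pdcd1 (PD-1), at 0.0215 (0.00910 to 0.0433) and 0.107 (0.0290 to 0.274), and Lag3, at 0.218 (0.153 to 0.308) and 0.0835 (0.00211 to 0.470). Cxcr6 was lower too, at 0.131 (0.0727 to 0.226) and 0.395 (0.292 to 0.525), and was found in 18 of 52 and 233 of 510 CD8 T cells. Ccr7, the lymph node homing receptor, was at 0.109 (0.0867 to 0.135), or 0.0468 up to 15000 UMIs, and 0.190 (0.117 to 0.291). Ifi27l2a, an interferon-induced gene, was at 0.108 (0.0800 to 0.144) and 0.0548 (0.0237 to 0.108), its 8 anti-CTLA-4 NK UMIs sitting in 1 cell. Of the type I interferon response list, 12 of 16 measured genes were at least 2-fold lower in NK cells after anti-CTLA-4 and 2 of 9 in the control.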

How the data were processed

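Gene expression was deposited by the authors as raw UMI counts per gene and barcode for 2 libraries, with T cell receptor contigs and UMI counts per contig for both and B cell receptor contigs for the anti-CTLA-4 library. Cell Ranger 5.0.0 and mm10 (GRCm38) are named per the submitters' processing notes; the annotation release is not given in the sources used here. Counts were used as deposited, summed by symbol over 32285 features, with Python 3.11.15, NumPy 2.4.6 and SciPy 1.17.1. The members and gene lists were chosen with earlier results of these data known.

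A ratio is the UMIs of a gene over all UMIs of a group, divided by the same in the other group, with a 95% exact conditional binomial interval. Shares have Clopper-Pearson intervals. Because each group has 1 library, no test across samples was made and a difference is described by its size: at least 2-fold, with at least 30 UMIs over both groups. These sums weight deep cells more, and PCR and molecules within a cell are not independent, so intervals cover counting error only. A list's median takes genes at 0 in 1 group at a floor of 3 counts.

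Named genes were list members with at least 30 UMIs, in each list first the 2 with most UMIs and the 2 farthest from 1. Outside the lists they were the 5 highest and 5 lowest by the interval bound nearest 1, with at least 50 UMIs and a UMI in 10% of cells where higher. Mitochondrial, ribosomal and receptor segment genes were left out there. Scrublet in Scanpy 1.11.5 called 0 and 1 doublets, under 0.5% of cells, so it did not work here. No doublets were removed, and the top 3% by score were left out in an alternative. Sums were also simulated as Poisson counts, the model under which these intervals hold, with no spread between cells. There the intervals held the set value for 96.9% of 3559 unchanged genes of the treatment comparison, of which 6.52% passed 2-fold. Spread between cells was not tested by it. A few genes of the lists are not reported here.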

Additional observations from a re-analysis of the deposited data

Results flagged for a closer look

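For 5 list genes, NK cells stood above CD8 T cells by 2-fold or more in 1 library and below them by 2-fold or more in the other. The difference between libraries was not tested. The chemokine Ccl3 had an NK over CD8 T ratio of 0.313 (0.238 to 0.410) in the control and 10.8 (6.18 to 18.6) after anti-CTLA-4, and its relative Ccl4 had 0.195 (0.169 to 0.225) and 5.83 (4.69 to 7.20). Of their control CD8 T UMIs, 119 of 129 and 600 of 611 sat in the single cell with most, so each control ratio rests on 1 cell. The nuclear receptor Nr4a2 had 0.451 (0.278 to 0.736) and 2.26 (1.45 to 3.41). Nfkbia, the inhibitor of NF-κB, had 0.498 (0.434 to 0.572) and 2.13 (1.77 to 2.54), but 0.900 in control cells with up to 15000 UMIs. The matrix proteoglycan gene Dcn had 6.69 (3.55 to 14.2) and 0.120 (0.00302 to 0.679), and its control ratio was 0.647 (0.269 to 1.66) in cells with up to 15000 UMIs.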

How the results depend on the processing

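No paired analysis was possible because each group has 1 library. Requiring at least 3 receptor UMIs gave NK shares of 1.28% of kept and 6.02% of Ptprc-positive cells in the control and 0.612% of kept cells after anti-CTLA-4, with 211 genes at least 2-fold higher and 234 lower between treatments and 14 genes higher in resident-marked anti-CTLA-4 cells. With at least 10 UMIs per gene, 1126 were higher and 1424 lower between treatments, and 141 (control) and 175 (anti-CTLA-4) higher in resident-marked cells; with at least 100 UMIs these were 100, 114, 3 and 1. Calling states from all UMIs gave control shares of 13.2% resident-marked and 37.7% circulating-marked, and 69 and 49 genes higher in resident-marked cells. Thinning to 2000 UMIs gave 26.1% circulating-marked in the control. Alternatives chosen after seeing the data follow. Leaving out cells over 15000 UMIs gave a control share of 2.94%, 263 genes higher and 240 lower. Leaving out NK cells with over 10 UMIs of tumour, macrophage or dendritic genes gave 268 and 235, and Cd74 turned to 1.02. Another thinning draw gave 13 genes higher in resident-marked cells and a resident-marked share of 8.11% after anti-CTLA-4. Of 92 named genes at least 2-fold apart, 66 were still so with cells weighted equally and 70 without the deep cells. Depth limits the states: most cells at 1000 UMIs held no state gene.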
